A study of Mus musculus with 24 samples.

Results

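The late night step in knockout fat compares 3 arrays of inguinal fat taken at circadian time CT0 with 3 arrays taken at CT18. CT0 is the start of the subjective day and CT18 the middle of the subjective night. All of these arrays are from mice with Bmal1 deleted in adipocytes. These 6 arrays, chosen by genotype and circadian time as titled, are 6 of the 24 arrays of the series. The groups used are knockout CT0 and knockout CT18 (aP2-Cre+/- Bmal1fx/fx mice, called Ad-Bmal1-/-), and beside them control CT0 and control CT18 (Bmal1fx/fx mice without Cre), with 3 arrays each from different animals. The mice were of the C57BL/6J strain after 6 or more generations of backcrossing and ate chow, with no age stated in the labels. All of them, controls included, had been in constant darkness since 36 h before collection began and had been without food for 24 h, so CT0 and CT18 mice were fasted at different times of day. The Cre recombinase is driven by the promoter of aP2 (Fabp4), a lipid binding protein of fat cells, and the pad also holds vessel, stromal and immune cells. Because the controls lack Cre, an effect of Cre itself cannot be told apart from that of the deletion. Values are log2 expression as deposited, differences are CT0 minus CT18 on the log2 scale with the standard error (SE) of the fit, and p-values come from limma, adjusted by Benjamini-Hochberg over 19938 genes with a threshold of 0.05.

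The circadian clock of mammalian cells is a loop in which BMAL1 (gene Arntl) and CLOCK bind E-box sequences and switch on their own repressors, the Period and Cryptochrome genes, and the REV-ERB receptors Nr1d1 and Nr1d2. REV-ERB proteins in turn repress Arntl, Nfil3 and Cry1, and the factors Dbp, Tef and Hlf act on D-box sequences that Nfil3 also binds as a repressor. In fat the clock is known to time lipid storage and release, and fat also follows signals from outside the cell such as glucocorticoids, temperature and feeding. What still changes between 2 times of day in fat whose adipocytes lack Bmal1 is the question this comparison addresses.

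In knockout fat 17 genes were higher and 9 lower at CT0 than at CT18 past the threshold, 26 of 19938 (0.13%, of which 0.0853% higher and 0.0451% lower). Among them the REV-ERB alpha gene Nr1d1 rose by 0.87 ± 0.16, about the size of its rise in control fat, and the flavin monooxygenase gene Fmo1 fell by 1.03. No gene list had more than 1 member past the threshold, and 2 had 1. At an unadjusted p under 0.05, 2929 genes (14.7%) differed, 1210 higher (6.07%) and 1719 lower (8.62%). In control fat only Nr1d1 passed (1 gene, 0.00502%), and 1176 genes (5.9%) had an unadjusted p under 0.05, 242 higher (1.21%) and 934 lower (4.68%). The difference of the step between genotypes, knockout minus control, passed in limma for 0 genes (0%) and had an unadjusted p under 0.05 for 978 (4.91%), 584 above 0 (2.93%) and 394 below 0 (1.98%), so no gene is shown to step differently in knockout fat.

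The tissue label was checked against its markers: the adipocyte genes Fabp4, Adipoq, Lpl and Cd36 read 11.60 or more on each of the 6 arrays, where the median gene read 6.50. Of the 6 arrays, 2 stood apart from their groups. Knockout CT0 replicate 2 correlated with the other 2 arrays of its group at 0.976 and 0.977, while those 2 correlated with each other at 0.995. Epithelial transcripts read higher on it than on the others. Wfdc2, a secreted protein of reproductive and airway epithelium, read 5.76, 8.98 and 5.54 on knockout CT0 replicates 1, 2 and 3, against 5.73, 5.49 and 6.02 on the knockout CT18 arrays, and Epcam read 7.63 on that array and at most 5.51 on the other 5. Its lipid droplet coat gene Plin1 was the lowest of the 6, at 8.66, and its smooth muscle myosin Myh11 the highest, at 11.01. Knockout CT18 replicate 3 correlated with its group at 0.986 and 0.987 and had the highest Fmo1 (11.05) and the lowest smooth muscle actin Acta2 (9.82) of the 6. On genes of drug, ester and retinol metabolism it read at the level of control fat: the log2 of the summed level of the 17 on that list was 14.54, against 14.35 and 14.24 on the other knockout CT18 arrays and 14.46 to 14.68 on the control CT0 and CT18 arrays. Over the 9 uterine epithelium markers the log2 of the summed level spanned 9.29 to 10.70 in knockout CT0 arrays, against 9.39 to 9.51 in knockout CT18 arrays. Over the 12 mammary and skin epithelium markers it spanned 9.87 to 11.03, against 9.93 to 10.08. Over the 9 adipocyte markers it spanned 14.40 to 14.81, against 14.66 to 14.79, and over the 10 smooth muscle and pericyte markers 12.70 to 13.47, against 12.06 to 12.49. In whole fat, fewer cells of a type and less RNA per cell cannot be told apart.

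The count of passing genes rested on single arrays. Without knockout CT18 replicate 1 or replicate 3, 0 genes passed, and without knockout CT18 replicate 2, 272 did (146 higher and 126 lower). Without knockout CT0 replicate 1, 2 or 3, the counts were 17, 17 and 44. With both arrays that stood apart left out, 3 genes passed, 1 of them, Nr1d1, among the 26. In a fit of the 6 arrays alone 0 genes passed, and an exact two-sided permutation test of 3 arrays against 3 cannot give a p below 0.1. Quantile normalization turned the balance of calls, with 25 of 58 higher instead of 17 of 26. All 26 genes kept their sign in each of the 17 other settings that gave them a value, and each kept its call in 6 to 12 of them. As the knockout groups did not overlap in any of the 26, leaving out arrays could not have changed a sign.

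The gene with the smallest p was Snx1, which encodes a sorting nexin of the endosome coat. It was named after its values were seen. It read 8.29, 8.26 and 8.19 on the knockout CT0 arrays, against 7.73, 7.93 and 7.74 on the knockout CT18 arrays. The difference of 0.45 ± 0.06 (adjusted p = 0.0144) compared with 0.13 ± 0.06 in control fat. Atp11a, a flippase that moves phospholipids across the plasma membrane, read 7.91, 7.94 and 7.92 at CT0, against 7.48, 7.48 and 7.09 at CT18, and rose by 0.57 ± 0.09 (adjusted p = 0.0144). The SD of Atp11a was 0.02 over the CT0 arrays, against 0.23 over the CT18 arrays, where replicate 3 was lowest.

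Tgfbr1, the type I receptor for transforming growth factor beta, read 8.03, 8.07 and 8.20 in knockout CT0 fat, against 7.62, 7.66 and 7.46 in knockout CT18 fat, a rise of 0.52 ± 0.10 (adjusted p = 0.0451). Skil encodes SnoN, a repressor of the SMAD proteins that this receptor activates, and read 7.61, 7.79 and 8.07 at CT0, against 7.17, 7.33 and 7.09 at CT18, a rise of 0.62 ± 0.12 (adjusted p = 0.0347). Lemd3, an inner nuclear membrane protein that binds SMADs, read 8.47, 8.51 and 8.54, against 8.01, 8.09 and 7.83, and rose by 0.53 ± 0.08 (adjusted p = 0.0144). In these 3 genes the groups did not overlap, as in all 26 genes past the threshold, which the same arrays chose. Over all genes 14.9% did not overlap (5.41% with the CT0 arrays above). Spred1, an inhibitor of Ras to ERK signalling, read 7.97, 8.19 and 8.08 at CT0, against 7.53, 7.72 and 7.36 at CT18, and rose by 0.54 ± 0.10 (adjusted p = 0.0335). In control fat Lemd3 and Spred1 differed by 0.02 ± 0.08 and -0.01 ± 0.10.

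Cnn2, the actin binding protein calponin 2, read 7.17, 7.31 and 7.26 in knockout CT0 fat, against 6.76, 6.51 and 6.04 in knockout CT18 fat, and rose by 0.81 ± 0.16 (adjusted p = 0.0451). Actn1, the actin crosslinker alpha-actinin 1, read 8.02, 8.58 and 8.01, against 7.61, 7.71 and 7.37, and rose by 0.64 ± 0.13 (adjusted p = 0.0451). The highest Actn1 value was that of knockout CT0 replicate 2, and the lowest that of knockout CT18 replicate 3. Sorbs2, an adaptor at actin fibres, rose by 0.74 ± 0.15, Fnbp1, which bends membranes at sites of actin assembly, by 0.47 ± 0.09, and Adamts6, a secreted metalloprotease, by 0.83 ± 0.17. Galnt7, which starts or extends mucin type sugar chains, read 7.60, 7.87 and 7.50, against 6.97, 6.88 and 6.97, and rose by 0.72 ± 0.12 (adjusted p = 0.0235). The remaining risers were Rassf9, a Ras association domain protein (0.89 ± 0.18), Mitf, a transcription factor of pigment cells and lysosomes (0.66 ± 0.12), Tmtc2, an enzyme that adds mannose in the endoplasmic reticulum (0.65 ± 0.13), and Prr14l (0.44 ± 0.09), the last also named after its values were seen.

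**Figure D1:**
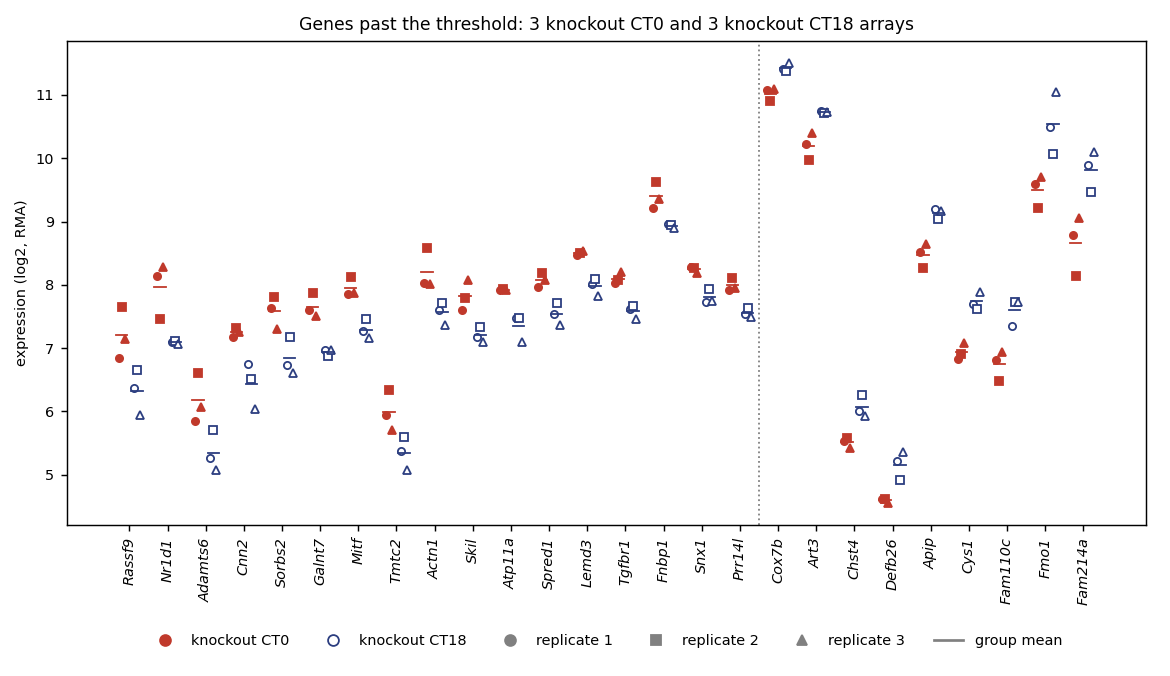
Log2 expression (vertical axis) of the 26 genes past the threshold on each of the 3 knockout CT0 arrays (filled, left) and the 3 knockout CT18 arrays (open, right), with the 17 risers left of the dotted line and the 9 fallers right of it. Shapes give the replicate and short bars the group mean, and in all 26 genes the groups do not overlap.

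The largest fall was that of Fam214a, which read 8.79, 8.15 and 9.06 in knockout CT0 fat, against 9.89, 9.46 and 10.09 in knockout CT18 fat, a difference of -1.15 ± 0.20 (adjusted p = 0.0316). In control fat the difference was -0.82 ± 0.20. Fmo1, which oxidises nitrogen and sulphur in drugs and metabolites, read 9.60, 9.21 and 9.70 at CT0, against 10.49, 10.06 and 11.05 at CT18, and fell by 1.03 (SE 0.20, adjusted p = 0.0367). The control arrays of Fmo1 read 10.59, 10.72 and 10.46 at CT0, against 10.88, 10.77 and 10.65 at CT18. The 3 knockout CT0 arrays lay below all 6 control arrays, and knockout CT18 replicate 3 lay above them. Without that array the Fmo1 difference was -0.77 and no longer passed (adjusted p = 0.254). The call was also lost without knockout CT0 replicate 1 (adjusted p = 0.0598), knockout CT0 replicate 2 (0.089) or knockout CT18 replicate 1 (0.102), and kept in 2 of the 6 fits that left out 1 of these arrays.

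Cys1, the ciliary protein cystin, read 6.82, 6.90 and 7.07 in knockout CT0 fat, against 7.70, 7.62 and 7.89 in knockout CT18 fat, and fell by 0.80 (SE 0.13, adjusted p = 0.0144). Apip, an enzyme of the methionine salvage pathway, read 8.52, 8.27 and 8.64, against 9.19, 9.04 and 9.16, and fell by 0.65 (SE 0.12, adjusted p = 0.0347), where control fat differed by -0.04 ± 0.12. Cox7b, a subunit of cytochrome c oxidase, read 11.07, 10.90 and 11.09, against 11.41, 11.38 and 11.51, and fell by 0.41 (SE 0.08, adjusted p = 0.0367). In these 3 genes the values within a group lay closer together than the groups did. Art3, of the ADP-ribosyltransferase family, read 10.23, 9.97 and 10.40, against 10.74, 10.72 and 10.73, and fell by 0.53 (SE 0.09, adjusted p = 0.0316). Fam110c fell by 0.86, the sulfotransferase gene Chst4 by 0.55 and the beta-defensin gene Defb26 by 0.56. Defb26 read at most 5.35 on any of the 6 arrays, below the median gene.

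Over the 4 times of day, 16 of the 17 risers had their highest knockout mean at CT0 and all 17 their lowest at CT18, and the exception was Nr1d1, highest at CT6. All 9 fallers had their lowest knockout mean at CT0, and 8 had their highest at CT18. These counts share the arrays that chose the genes, so they describe the genes and test nothing. In control fat the difference had the same sign in 24 of the 26, was smaller in size in 25, and had an unadjusted p under 0.05 in 6. The difference of the step between genotypes had an unadjusted p under 0.05 in 20 of the 26, and its adjusted p was 0.937 or more in each. That count reads the same knockout arrays that chose the genes and is not independent evidence.

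**Figure D2:**
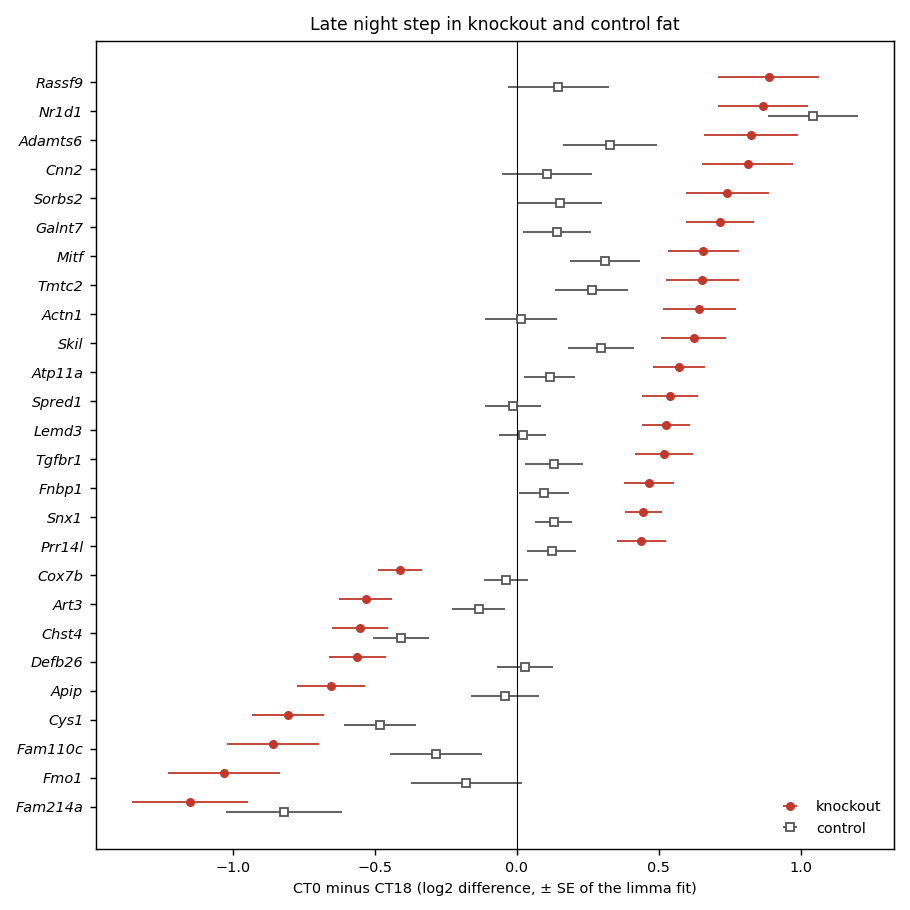
CT0 minus CT18 on the log2 scale (horizontal axis) for the 26 genes past the threshold in knockout fat, with the SE of the limma fit, in knockout (filled circles) and control fat (open squares). Nr1d1 is the gene whose control difference, 1.04, exceeds that in knockout fat, 0.87, while Spred1, Lemd3 and Actn1 lie near 0 in control fat.

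Of the 17 clock genes measured, Nr1d1 passed and rose. It read 8.14, 7.47 and 8.28 in knockout CT0 fat, against 7.10, 7.11 and 7.07 in knockout CT18 fat (adjusted p = 0.0335). The SD was 0.44 over the CT0 arrays, of which replicate 2 was the lowest, against 0.02 over the CT18 arrays. In control fat Nr1d1 read 8.48, 8.23 and 8.65 at CT0, against 7.55, 7.31 and 7.37 at CT18, a rise of 1.04 ± 0.16 (adjusted p = 0.0298), and the difference of the step between genotypes was -0.18 ± 0.22 (unadjusted p = 0.44). The knockout call was kept in 2 of the 6 fits that left out 1 of these arrays. Those were the fits without knockout CT0 replicate 2 (1.12, adjusted p = 0.000573) and without knockout CT18 replicate 2 (0.88, adjusted p = 0.0255). The call also held with both arrays that stood apart left out (1.10, adjusted p = 0.00556). It was lost without knockout CT0 replicate 1 (0.78, adjusted p = 0.0812) or 3 (0.71, adjusted p = 0.0691) and without knockout CT18 replicate 1 (0.87, adjusted p = 0.0991) or 3 (0.86, adjusted p = 0.254). The bases around its RefSeq start follow, shown because this was the clock gene that passed, and they hold none of the motifs searched. The promoters of Per1, Per3 and Nfil3 are shown beside it because these clock genes, which read lower at CT0, hold a match. Each run is 300 bases (250 before the start and 50 after it), from RefSeq on GRCm38.p6, with motif matches in capitals. Nr1d1 lies at chr11:98775328-98775627 and Nfil3 at chr13:52980990-52981289 on the minus strand, Per1 (the first of 2 starts) at chr11:69098699-69098998 on the plus strand and Per3 at chr4:151044616-151044915 on the minus strand.
Nr1d1 promoter: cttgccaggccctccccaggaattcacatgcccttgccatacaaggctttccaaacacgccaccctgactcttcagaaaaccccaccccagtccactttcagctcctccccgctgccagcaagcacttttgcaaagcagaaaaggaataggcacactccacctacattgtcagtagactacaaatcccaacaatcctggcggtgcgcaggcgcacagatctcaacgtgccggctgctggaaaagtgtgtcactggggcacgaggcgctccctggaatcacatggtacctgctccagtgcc
Nfil3 promoter: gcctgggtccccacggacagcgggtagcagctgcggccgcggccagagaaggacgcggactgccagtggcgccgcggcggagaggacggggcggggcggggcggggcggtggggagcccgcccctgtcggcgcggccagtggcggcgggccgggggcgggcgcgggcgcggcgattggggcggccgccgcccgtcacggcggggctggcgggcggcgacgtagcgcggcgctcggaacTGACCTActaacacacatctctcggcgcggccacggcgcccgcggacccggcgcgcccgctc
Per1 promoter: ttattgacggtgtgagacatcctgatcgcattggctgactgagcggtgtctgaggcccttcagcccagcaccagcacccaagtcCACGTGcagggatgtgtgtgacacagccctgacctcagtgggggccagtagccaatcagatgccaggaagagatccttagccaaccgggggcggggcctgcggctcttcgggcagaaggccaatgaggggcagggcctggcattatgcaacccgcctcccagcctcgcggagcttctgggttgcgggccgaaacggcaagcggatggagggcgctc
Per3 promoter: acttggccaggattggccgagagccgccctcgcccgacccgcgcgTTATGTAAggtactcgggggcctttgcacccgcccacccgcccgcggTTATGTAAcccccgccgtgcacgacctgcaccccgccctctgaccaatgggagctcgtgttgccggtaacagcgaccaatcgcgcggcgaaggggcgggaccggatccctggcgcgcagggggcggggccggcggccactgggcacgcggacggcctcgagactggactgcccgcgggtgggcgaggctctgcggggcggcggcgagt
The motifs searched on both strands were the E-box CACGTG, the D-box forms TTATGTAA and TTACGTAA, and the REV-ERB and ROR element as TAGGTCA and TGGGTCA, and no matches overlapped. Of 32851 promoters of the same length, 7.15% hold CACGTG, 0.938% TTATGTAA, 0.119% TTACGTAA, 2.61% TAGGTCA and 3.98% TGGGTCA. Per1 holds an E-box that starts 166 bases before its start site. Per3 holds 2 D-boxes, 205 and 158 bases before it. Nfil3 holds a TAGGTCA element on the other strand, printed as TGACCTA, 12 bases before its start. The promoter at the second Per1 start (chr11:69099902-69100201, plus strand) and that of Nr1d2 held no match, and Per2 is not shown. A match in these letters is a description and not a site shown to be used.

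Nr1d2, the REV-ERB beta gene, read 7.96, 8.12 and 8.12 in knockout CT0 fat, against 7.31, 7.43 and 7.74 in knockout CT18 fat, with no overlap. The difference of 0.57 ± 0.17 did not pass (adjusted p = 0.139). In control fat Nr1d2 read 8.14, 7.91 and 8.03 at CT0, against 8.22, 7.93 and 7.80 at CT18, a difference of 0.04 ± 0.17, and the step differed between genotypes by 0.54 ± 0.24 (unadjusted p = 0.0336, adjusted p = 0.937). For Arntl itself the larger difference was that in control fat. Its probe set read 7.51, 7.30 and 7.49 in knockout CT0 fat, against 7.43, 7.29 and 7.07 in knockout CT18 fat, a difference of 0.17 ± 0.16. Control fat read 7.97 on all 3 CT0 arrays, against 7.04, 7.38 and 7.55 at CT18, a difference of 0.65 ± 0.16. The step differed by -0.48 ± 0.22 and did not pass (unadjusted p = 0.0434, adjusted p = 0.937). Which exons were deleted is not stated in the labels, so its level does not check the deletion.

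Of the other clock genes, 5 were lower at CT0 at an unadjusted p under 0.05, beside 8.62% of all genes, and none of these passed. Nfil3, a repressor at D-boxes, read 7.80, 7.68 and 7.97 in knockout CT0 fat, against 8.50, 8.28 and 8.72 in knockout CT18 fat, a difference of -0.69 ± 0.26 (adjusted p = 0.23). The arrays of control fat overlapped for this gene, at -0.36 ± 0.26. The Period genes read lower as well: Per1 by -0.35 ± 0.14, Per2 by -0.30 ± 0.10 and Per3 by -0.41 ± 0.16, with control differences of -0.17 ± 0.14, -0.50 ± 0.10 and -0.46 ± 0.16. Per2 read 6.60, 6.80 and 6.99 at CT0, against 7.09, 7.11 and 7.11 at CT18, without overlap. Tef, a D-box activator, differed by -0.22 ± 0.10 in knockout and -0.24 ± 0.10 in control fat.

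The remaining 9 clock genes did not reach that level. The D-box activators Hlf and Dbp differed by -0.24 ± 0.15 and -0.03 ± 0.16, the cryptochromes Cry1 and Cry2 by -0.07 ± 0.13 and 0.04 ± 0.11, and the activator Clock by 0.10 ± 0.14. Rora, the receptor that opposes REV-ERB, differed by -0.13 ± 0.13, the E-box repressors Bhlhe40 and Bhlhe41 by 0.21 ± 0.12 and 0.18 ± 0.35, and Ciart, a further repressor of the clock, by 0.01 ± 0.23. Bhlhe41 had its lowest value of the 6 arrays on knockout CT0 replicate 2, at 5.95, where the other 2 CT0 arrays read 7.94 and 7.63. Without that array 3 clock genes were higher and 3 lower at an unadjusted p under 0.05 (beside 7.29% and 8.28% of all genes). Without knockout CT18 replicate 3 there were 2 of each (beside 3.88% and 6.06%). With both arrays that stood apart left out 3 were higher and 1 lower (beside 4.77% and 6.24%).

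**Figure D3:**
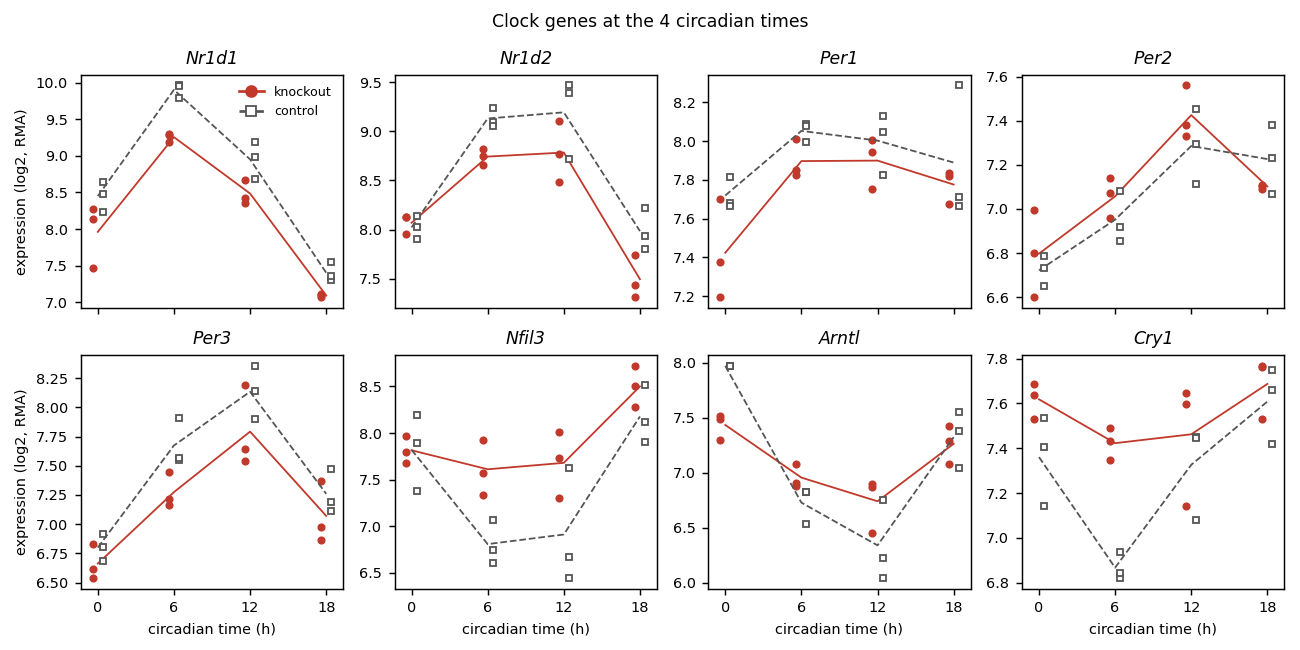
Log2 expression (vertical axes, each with its own range) of 8 clock genes at CT0, CT6, CT12 and CT18 (horizontal axis, h) in knockout (filled circles, solid line through the means) and control fat (open squares, dashed line), 3 arrays per group. Nr1d1 is lowest at CT18 in both genotypes, and at CT0 the control arrays of Arntl, all at 7.97, lie above the knockout arrays.

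All 27 respiratory chain genes measured were lower at CT0 than at CT18 in knockout fat, and none passed. Cox7b, the complex IV subunit gene that passed, is not on this list. These genes encode subunits of the complexes that carry electrons and make ATP in mitochondria. Their median difference was -0.23, against -0.04 over all genes, 60.1% of which were below 0. At an unadjusted p under 0.05, 15 of 27 were lower and 0 higher, and in 15 all knockout CT0 arrays lay below all knockout CT18 arrays, as in 9.45% of all genes. In control fat the median was 0.06, 24 of 27 were positive, and 0 had an unadjusted p under 0.05. The log2 of the summed level was 15.393, 15.485 and 15.348 on control CT0 replicates 1, 2 and 3. The control CT18 arrays read 15.375, 15.3 and 15.408. Control CT0 replicate 2 was the highest of these, and how far the control values rest on it was not tested. The difference of the step had an unadjusted p under 0.05 in 11 of 27, all with the knockout step below the control step. Over all genes 1.98% did so, and none of the 27 passed. Ndufs3, a complex I subunit, read 9.50, 9.23 and 9.47 in knockout CT0 fat, against 9.72, 9.70 and 9.88 in knockout CT18 fat, a difference of -0.37 ± 0.09. Sdhb, of complex II, read 9.37, 8.99 and 9.39, against 9.76, 9.56 and 9.87, a difference of -0.48 ± 0.12. Knockout CT0 replicate 2 was the lowest and knockout CT18 replicate 3 the highest in both genes. Ndufb5 and Cox7a2, of complexes I and IV, differed by -0.41 ± 0.11 and -0.32 ± 0.10. Without knockout CT0 replicate 2 the list median was -0.13, and with both arrays that stood apart left out it was -0.11 with 26 of 27 below 0. In that last fit 2 of 27 were lower at an unadjusted p under 0.05 (7.41%), near the 6.24% of all genes. With only knockout CT0 replicate 2 or only knockout CT18 replicate 3 left out, 8 of 27 were (29.6%, beside 8.28% and 6.06% of all genes). The part of adipocyte content in these values was not tested.

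Of 18 genes of lipogenesis and triglyceride synthesis, 16 were lower at CT0 in knockout fat (beside 60.1% of all genes), 5 at an unadjusted p under 0.05 (beside 8.62%), and none passed. Their median was -0.34, against 0.11 in control fat. The log2 of the summed level of the list was 13.80, 14.46 and 13.66 on control CT0 replicates 1, 2 and 3. The control CT18 arrays read 13.83, 13.47 and 13.78. Control CT0 replicate 2 was the highest of these, and how far the control median rests on it was not tested. Thrsp, a lipogenic regulator known as Spot 14, read 9.40, 9.87 and 9.66 in knockout CT0 fat, against 10.86, 10.15 and 11.20 in knockout CT18 fat, without overlap. Its difference was -1.09 ± 0.28 and that in control fat -0.05, a difference of the step of -1.04 ± 0.40 (unadjusted p = 0.0166). Gpam, which adds the first fatty acid to glycerol phosphate, differed by -0.66 ± 0.19 in knockout and -0.46 in control fat. Dgat2, which makes triglyceride, read 9.86, 8.14 and 9.38, against 9.62, 9.80 and 10.25, a difference of -0.76 ± 0.33 with overlap. Without knockout CT0 replicate 2 that difference was -0.27. Lpin1, the phosphatidate phosphatase, differed by -0.56 ± 0.25. Without knockout CT0 replicate 2 the list median was -0.21, and without knockout CT18 replicate 3 it was -0.12. Either way 3 of 18 were lower at an unadjusted p under 0.05 (beside 8.28% and 6.06% of all genes). With both left out the list median was -0.07, with 13 of 18 below 0 and 2 lower at that level (beside 6.24% of all genes).

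Of 17 genes of drug, ester and retinol metabolism, 13 were lower at CT0 in knockout fat (beside 60.1% of all genes), 8 at an unadjusted p under 0.05 (beside 8.62%), and 1, Fmo1, passed. The median was -0.30, against 0.02 in control fat. For a lower step in knockout fat, 6 had an unadjusted p under 0.05 (beside 1.98% of all genes). Ces1f, a carboxylesterase that cleaves lipid esters, read 8.50, 8.17 and 8.56 in knockout CT0 fat, against 9.34, 9.21 and 9.49 in knockout CT18 fat, a difference of -0.94 ± 0.19. The knockout groups did not overlap, and control fat read 9.58, 9.67 and 9.23 at CT0, against 9.60, 9.60 and 9.62 at CT18. Ces1d, a near relative, differed by -0.70 ± 0.21 and the glutathione transferase gene Gsta3 by -0.92 ± 0.26, where knockout CT18 replicate 3 read 11.01, against 10.16 and 9.86 on the other 2 CT18 arrays. With both arrays that stood apart left out the list median was -0.18, and 3 of 17 were lower at an unadjusted p under 0.05 (beside 6.24%). Without knockout CT0 replicate 2 alone 6 of 17 were, and without knockout CT18 replicate 3 alone 7 (beside 8.28% and 6.06%).

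Glucocorticoid responsive genes were lower at CT0 in both genotypes by median, at -0.33 in knockout and -0.20 in control fat. Of 15, 13 were below 0 in knockout fat (beside 60.1% of all genes), 6 at an unadjusted p under 0.05 (beside 8.62%), and none passed. Tsc22d3, which encodes the leucine zipper protein GILZ, read 7.92, 7.50 and 8.10 in knockout CT0 fat, against 8.35, 8.23 and 8.81 in knockout CT18 fat, a difference of -0.62 ± 0.16. Zbtb16, the zinc finger factor PLZF, differed by -0.75 ± 0.21 in knockout and -0.90 in control fat, and Klf15, a metabolic transcription factor, by -0.48 ± 0.14 and -0.36. Dusp1, a phosphatase of MAP kinases, differed by -0.38 ± 0.15. None of the 15 had an unadjusted p under 0.05 for a difference of the step between genotypes (beside 4.91% of all genes). Without knockout CT18 replicate 3 the list median was -0.12 with 4 of 15 lower at an unadjusted p under 0.05 (beside 6.06% of all genes). With both arrays left out it was -0.15 with 2 of 15 (beside 6.24%).

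Of 8 adipokine genes, 7 were lower at CT0 in knockout fat (beside 60.1% of all genes), 3 at an unadjusted p under 0.05 (beside 8.62%), with a median of -0.22 against -0.01 in control fat. Retn, which encodes resistin, read 11.64, 11.22 and 11.65 in knockout CT0 fat, against 12.11, 11.77 and 12.14 in knockout CT18 fat, a difference of -0.50 ± 0.12 where control fat differed by -0.01. Nampt, which makes a precursor of NAD and is also secreted, differed by -0.64 ± 0.21, and the retinol carrier Rbp4 by -0.37 ± 0.13. Adipoq, which encodes adiponectin, differed by -0.13 ± 0.08 and its groups overlapped. With both arrays left out the list median was -0.04, and 1 of 8 was lower at that level (beside 6.24% of all genes). Without knockout CT0 replicate 2 alone 2 of 8 were, and without knockout CT18 replicate 3 alone 1 (beside 8.28% and 6.06%).

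Smooth muscle and pericyte markers were the list with the highest median in knockout fat, at 0.68 against -0.18 in control fat. Of 10, 8 were higher at CT0, 5 higher and 1 lower at an unadjusted p under 0.05 (beside 6.07% and 8.62% of all genes), and none passed. Acta2, the actin of smooth muscle, read 11.55, 11.79 and 11.44 in knockout CT0 fat, against 10.87, 10.92 and 9.82 in knockout CT18 fat, a difference of 1.06 ± 0.28. Actg2, the enteric form of that actin, read 10.36, 10.44 and 8.88, against 8.63, 9.03 and 8.27, and overlapped. Its control arrays read 7.53, 10.73 and 8.82 at CT0, so the spread within 1 group exceeded the knockout difference of 1.25 ± 0.53. Over the whole list the log2 of the summed level was 11.98, 13.37 and 12.26 on those control CT0 arrays. Tagln and Myh11, which bind and move actin in smooth muscle, differed by 0.77 ± 0.34 and 0.83 ± 0.39. Cnn2 and Actn1, which passed, are not on this list, and both also read highest on knockout CT0 replicate 2. The list median was 0.40 without that array, 0.58 without knockout CT18 replicate 3 and 0.30 without both. In each of these fits 1 of 10 was higher at an unadjusted p under 0.05 (beside 7.29%, 3.88% and 4.77% of all genes). Without knockout CT0 replicate 2, 1 of 10 was also lower at that level (beside 8.28%). Whether a change in vessel content accompanied the step was not tested.

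Collagen and matrix genes were higher at CT0 by a smaller amount. Of 17, 14 were above 0, 5 at an unadjusted p under 0.05 (beside 6.07% of all genes), and none passed. The median was 0.22 in knockout and 0.04 in control fat. Col5a2 and Col3a1, chains of fibrillar collagens, differed by 0.25 ± 0.09 and 0.30 ± 0.13 with no overlap between the knockout groups. Lox, which crosslinks collagen, read 8.93, 8.08 and 8.83 in knockout CT0 fat, against 8.18, 7.96 and 8.18 in knockout CT18 fat, a difference of 0.51 ± 0.20, and differed by 0.68 in control fat. Mmp2, a protease that cuts matrix, differed by 0.42 ± 0.19. The list median was 0.07 without knockout CT18 replicate 3 and 0.11 without both arrays that stood apart. In either fit 1 of 17 (5.88%) was higher at that level, beside 3.88% and 4.77% of all genes. Without knockout CT0 replicate 2 alone the median was 0.22, and 3 of 17 were higher (beside 7.29%).

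**Figure D4:**
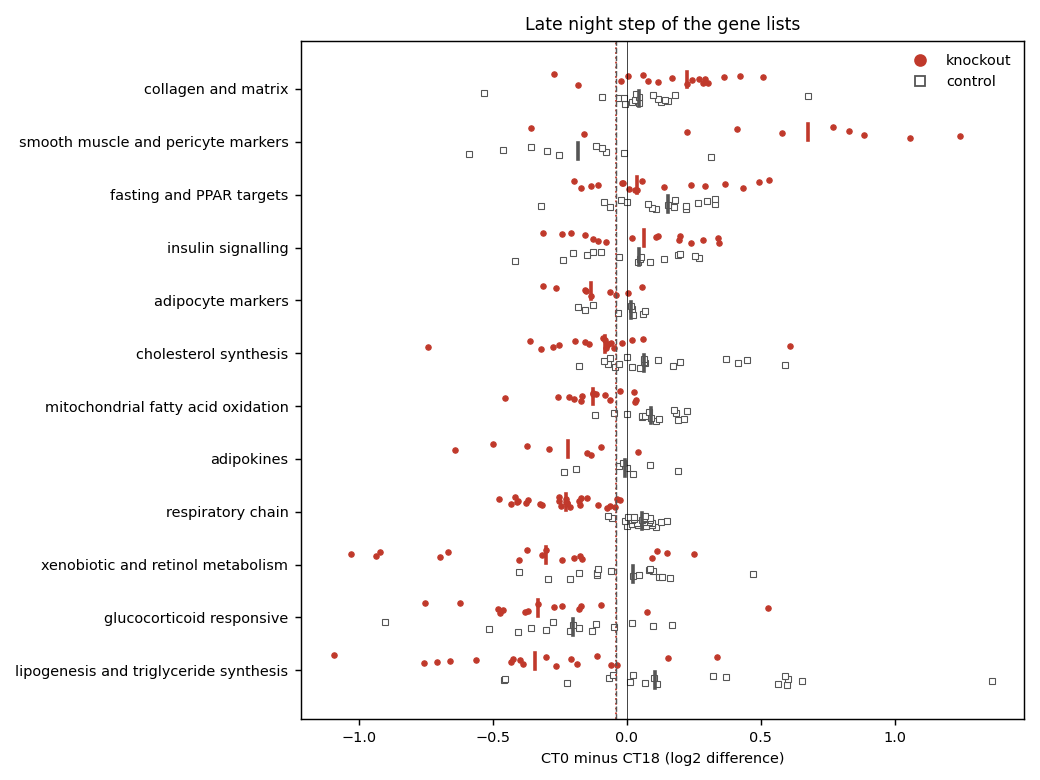
CT0 minus CT18 on the log2 scale (horizontal axis) for each measured member of 12 gene lists in knockout (filled circles) and control fat (open squares), with bars at the list medians and dotted and dashed vertical lines at the medians of all genes, both at -0.04. The respiratory chain lies below 0 in knockout fat with a median of -0.23 and around 0.06 in control fat, and smooth muscle and pericyte markers have the highest knockout median, 0.68.

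Of 17 fasting and PPAR target genes, 11 were above 0 in knockout fat, 3 at an unadjusted p under 0.05 (beside 6.07% of all genes) and none passed, with a median of 0.04 against 0.15 in control fat. Without knockout CT18 replicate 3 that median was -0.04, with 9 of 17 below 0 and 0 at an unadjusted p under 0.05. Without knockout CT0 replicate 2 it was 0.16, and with both arrays that stood apart left out 0.06. In either of the latter fits 4 of 17 were higher at that level (beside 7.29% and 4.77% of all genes). Cpt1a, which admits fatty acids to mitochondria, read 7.93, 7.71 and 7.81 in knockout CT0 fat, against 7.49, 7.63 and 7.02 in knockout CT18 fat, a difference of 0.44 ± 0.13. Ucp3, a mitochondrial carrier, differed by 0.53 ± 0.20. Of 15 genes of mitochondrial fatty acid oxidation 12 were below 0 (beside 60.1% of all genes), 1 at an unadjusted p under 0.05 (beside 8.62%), with a median of -0.12, and Cpt2, the inner membrane partner of Cpt1a, differed by -0.46 ± 0.17. Without knockout CT0 replicate 2 the median of the fatty acid oxidation list was 0.01. Without knockout CT18 replicate 3 it was -0.20 with 4 of 15 lower at that level (beside 6.06% of all genes). In glucose metabolism Pfkfb3, which makes the activator of phosphofructokinase, differed by 0.71 ± 0.18 in knockout and 0.66 in control fat, and Pgk1, a glycolytic kinase, by -0.36 ± 0.12 in knockout and 0.12 in control fat. Of 15 genes of glucose uptake and glycolysis 12 were below 0 (beside 60.1% of all genes), with 1 higher and 2 lower at an unadjusted p under 0.05 (beside 6.07% and 8.62%), counts near the background. Without knockout CT0 replicate 2 or knockout CT18 replicate 3, 0 were lower at that level (beside 8.28% and 6.06%).

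In insulin signalling 9 of 16 genes were above 0 in knockout fat, with 4 higher and 2 lower at an unadjusted p under 0.05 (beside 6.07% and 8.62% of all genes) and a median of 0.06. Without knockout CT18 replicate 3 the median was -0.04, with 2 higher and 0 lower at that level (beside 3.88% and 6.06%). Without knockout CT0 replicate 2 it was 0.08, with 3 higher and 0 lower (beside 7.29% and 8.28%). With both arrays left out it was 0.08, with 3 higher and 1 lower (beside 4.77% and 6.24%). Igf1r, the receptor of insulin-like growth factor, differed by 0.34 ± 0.11, and Grb14, an adaptor that restrains the insulin receptor, by 0.29 ± 0.09, both without overlap between the knockout groups. Of 19 genes of cholesterol synthesis 16 were below 0, 2 at an unadjusted p under 0.05 (beside 60.1% and 8.62% of all genes), with a median of -0.08. In the fit without knockout CT0 replicate 2, 12 of 19 were below 0, and 2 were higher and 1 lower at that level (beside 7.29% and 8.28%). Fdft1, which commits the pathway to sterols, read 7.21, 7.36 and 7.31 in knockout CT0 fat, against 7.74, 7.89 and 8.47 in knockout CT18 fat, a difference of -0.74 ± 0.20. Neither list held a passing member.

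With all arrays fitted, medians of the marker lists other than smooth muscle lay between -0.29 (Schwann cells, 4 genes) and 0.27 (uterine epithelium). The B cell list had a median of 0.11 with 0 of 9 at an unadjusted p under 0.05. Without knockout CT0 replicate 2 that median was 0.33 with 4 of 9 higher at that level (beside 7.29% of all genes). With both arrays that stood apart left out it was 0.35 with 3 of 9 (beside 4.77%). The adipocyte list had a median of -0.13 with 7 of 9 below 0, and 0.02 with both arrays that stood apart left out. The endothelial list had a median of -0.06 in knockout and -0.25 in control fat, with 0 of 12 at an unadjusted p under 0.05 in knockout fat. The macrophage list had a median of 0.02 with 1 of 14 lower at that level (beside 8.62% of all genes). That median was 0.29 without knockout CT0 replicate 2, and -0.15 with 10 of 14 below 0 without knockout CT18 replicate 3. The uterine epithelium list had 8 of 9 above 0, and without knockout CT0 replicate 2 all 9 were below 0 with a median of -0.14.

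The test of whether the step differed between genotypes passed for no gene, with a smallest adjusted p of 0.937. The 10 genes with the smallest p were Kir3dl2, Taf5l, Olfr714, Lemd3, Pcdhb2, Defb26, Rdh18-ps, Spred1, Armt1 and Myl1. Kir3dl2, of a receptor family known from natural killer cells, read 4.26, 4.15 and 4.32 in knockout CT0 fat, against 4.45, 4.43 and 4.58 in knockout CT18 fat, and 4.28, 4.30 and 4.17 in control CT0 fat, against 3.87, 4.02 and 4.01 in control CT18 fat. Taf5l, a subunit of transcription coactivator complexes, differed by 0.23 ± 0.09 in knockout and -0.32 ± 0.09 in control fat. Kir3dl2, Olfr714, Defb26 and Rdh18-ps averaged 5.13 or less over all arrays, below the median gene of 6.50. Pcdhb2, Taf5l and Armt1, at 5.26, 6.26 and 6.35, also averaged below it. Myl1, a light chain of skeletal muscle myosin, read 7.89, 7.26 and 7.81 in knockout CT0 fat, against 8.10, 8.53 and 8.30 in knockout CT18 fat, and differed by 0.29 ± 0.18 in control fat.

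The step in knockout fat varied with the genomic span of a gene, the length it covers from first to last exon in RefSeq. Over the 19856 genes with a span (99.6%), set in 5 groups from short to long with median spans of 1.56, 7.78, 17.7, 37.5 and 111 kb, the median difference in knockout fat was -0.09, -0.07, -0.04, -0.00088 and 0.02. In control fat it was -0.06, -0.05, -0.03, -0.02 and -0.02. The share of genes above 0 in knockout fat was 23.1% among the shortest and 55.6% among the longest, and in control fat 27% and 41.6%. On single arrays the longest group less the shortest was taken, each as a median deviation from the mean over all arrays. It was 0.02, 0.01 and 0.06 on the knockout CT0 arrays, against -0.11, -0.01 and -0.11 on the knockout CT18 arrays. Replicates 1 and 3 of CT18 lay furthest from 0, followed by replicate 3 of CT0. With knockout CT18 replicate 1 or replicate 3 left out, 0 genes passed. Of the 17 risers, 11 were in the longest group and 0 in the shortest, with a median span of 65.1 kb, and of the 9 fallers 2 were in the longest and 1 in the shortest, with a median of 16.1 kb. The 27 respiratory chain genes had a median span of 9.57 kb, with none in the longest group. Whether RNA quality or amplification took part in this pattern was not tested.

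**Figure D5:**
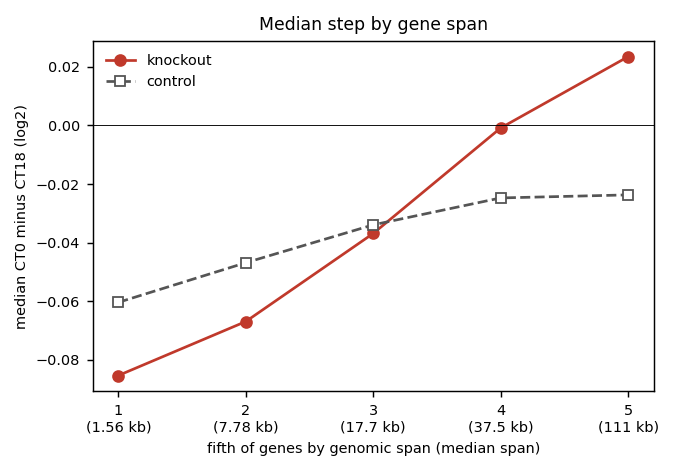
Median of CT0 minus CT18 on the log2 scale (vertical axis) over genes grouped in 5 by genomic span, short to long (horizontal axis, with the median span of each group in kb), in knockout (filled circles, solid line) and control fat (open squares, dashed line). The knockout medians run up to 0.02 in the longest group, starting at -0.09 in the shortest, and the control medians lie between -0.06 and -0.02.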

How the data were processed

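Total RNA of inguinal fat was measured on 24 Affymetrix mouse gene arrays, 3 for each of 8 groups of genotype and circadian time. From 50 ng of Trizol-extracted RNA, biotinylated cDNA was made after amplification (Ovation Pico WTA), per the labels' protocols. The deposited values are log2 expression made by the authors with RMA, per the submitters' processing notes, whose version and scan dates were not stated there. They were used with no further normalization, and 3 arrays per group limit the precision.

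Of 35556 probe sets, 21789 had 1 gene symbol in the platform annotation, 1621 several and 12146 none here. A gene was the probe set with the highest mean (999 genes had several), which left 19938 genes, unfiltered. Symbols were checked against RefSeq (GRCm38.p6), and 0 differed. In R 4.3.3, limma 3.58.1 (lmFit, then eBayes) fitted the 8 group means to the 24 arrays, with 16 residual and 5.03 prior degrees of freedom, and the fit was tested on simulated data. The contrasts were CT0 minus CT18 in knockout fat, in control fat, and their difference. The text names the clock genes, up to 15 passing genes in each direction, the 10 of smallest p for the difference, and from each list described 4 members of smallest p plus any that passed. The comparison, lists and rule were chosen with earlier results of these data known. Promoters were searched in Python 3.11.15 with pandas 2.3.3. Alternatives were the samples fitted, normalization, filters, probe set rule, variance model, replicate block and leaving out arrays.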

Additional observations from a re-analysis of the deposited data

How the results depend on the processing

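For knockout CT0 minus CT18, against 26 genes past the threshold, 0 passed in a fit of the 6 arrays alone and 0 in a fit of the 12 knockout arrays. Quantile normalization gave 58 genes (24 shared with the 26), a mean of at least 6 gave 51 (22 shared), array weights 9 (6 shared), every probe set tested on its own 1, and leaving out both arrays that stood apart 3 (1 shared). Leaving out 1 array at a time gave 0 (without knockout CT18 replicate 1 or 3) to 272 genes (without knockout CT18 replicate 2). Centring each array on its median (23), a mean of at least 5 (25), averaging probe sets (22) and a trended robust variance (25) stayed within 1.5 times of 26. For control CT0 minus CT18, against 1 gene, 0 passed in a fit of the 6 control arrays, 0 with every probe set on its own, 2 with array weights, and 0 to 3 when 1 array was left out. For the difference of the step 0 genes passed in every setting run. None of the 26 genes changed sign, which leaving out arrays could not have brought about, as their knockout groups did not overlap. Over all named genes and settings, 2743 gene results kept direction and side of the threshold, 203 lost the call and 21 gained one. The other 53 changed sign, in genes past the threshold in neither fit. Medians of the respiratory chain, lipogenesis, glucocorticoid, xenobiotic, adipokine, collagen and smooth muscle lists kept their sign in the 17 other settings, and that of the adipocyte markers turned in 2. The replicate number as a block gave 34 genes, with all 26 among them. Deviations of knockout CT0 and CT18 arrays with the same number correlated at 0.00457, -0.21 and -0.0168, which shows no pairing by number. These 3 values cannot tell whether arrays with the same number shared a batch. The cause of these shifts was not tested. With 3 arrays a group, differences smaller than those that passed, as in most list members, were not resolved gene by gene, and dim genes such as Defb26 lie where array signal says least.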
